A study of Hordeum vulgare with 64 samples.

Results

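The early salt response of barley roots was measured in 12 of the 64 RNA libraries of the study: roots of the varieties TX9425 (TX, described by the authors as tolerant) and Nasonijo (NN, described as sensitive) after 1 h and 24 h in 300 mM NaCl, and the control roots of each variety. The members were taken from the sample labels, and each of the 6 groups holds 2 replicate libraries. The plants were treated in greenhouse pots at the 3-leaf stage, and both varieties shared a pot. The controls are titled CON, taken here as roots without NaCl, and their titles give no time. The methods do not say when they were sampled. A comparison with them may therefore hold the time of sampling as well as the salt. The methods state 3 biological replicates, the labels hold 2, and nothing in the labels says whether these came from separate pots. The p-values therefore rest on differences between 2 libraries of a group, and these may be purely technical. The fit also held the roots of both varieties after 10 d of salt, and a second experiment, used for comparison, held waterlogged roots of both varieties (control, 1 h, 72 h and 2 weeks). Values are FPKM (fragments counted for a gene, scaled for its length and for the mapped total of the library), and changes are differences of log2(FPKM + 1), a scale that understates the change of genes with low values. A gene was counted as higher or lower in salt where its limma p, adjusted over 22314 tested rows, was under 0.05 and its log2 change was beyond 1.

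Salt reaches a root first as a loss of available water and then as an excess of sodium and chloride in the cells. Within minutes the osmotic shock sets off calcium and abscisic acid signals, and kinases and transcription factors driven by these signals change the expression of genes for osmolyte synthesis, ion transport, cell wall growth and the detoxification of reactive oxygen. The SOS (salt overly sensitive) pathway, known best from Arabidopsis, exports sodium across the plasma membrane, while HKT and NHX transporters keep sodium out of the shoot or store it in the vacuole. Of the identifiers in the table, 0 were found in the barley gene table used here, so these families could not be looked up, and all genes but one are given by identifier alone. The digit after HORVU stands for the chromosome.

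One library of these 12 stood apart, and it is a control. Replicate 2 of the TX controls had a Pearson correlation of 0.866 with replicate 1 across the tested rows of log2(FPKM + 1), against 0.944 between the NN libraries of 1 h and 0.970 to 0.985 in the other 4 early groups. It was most like replicate 2 of TX roots after 10 d of salt, with a correlation of 0.913. In the TX control pair, 5328 genes differed by more than 1 on the log2 scale, against 358 in the NN control pair. On a scale made of the 2178 genes that were higher in NN roots after 10 d of salt (9.76% of rows tested) and the 3013 that were lower (13.5%), this library lay at 1.14, while the other 11 early libraries lay between -1.46 and -0.31. By variety and tissue the library followed its labels. Of 34 genes seen in TX but not in NN in the waterlogging roots, 31 were above 0.5 FPKM in it, and of 41 seen in NN but not in TX none was. The 84 genes seen in every waterlogging leaf and in no waterlogging root had a median of 0 FPKM in each of the 12 libraries. The 39 genes of the opposite pattern had a median of 2.31 FPKM in this library and of 5.82 to 11.6 FPKM in the other 11. The TX counts are given with and without it. The TX roots of 10 d, which share in the estimate of the spread, also had unlike replicates, with a correlation of 0.839.

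**Figure D1:**
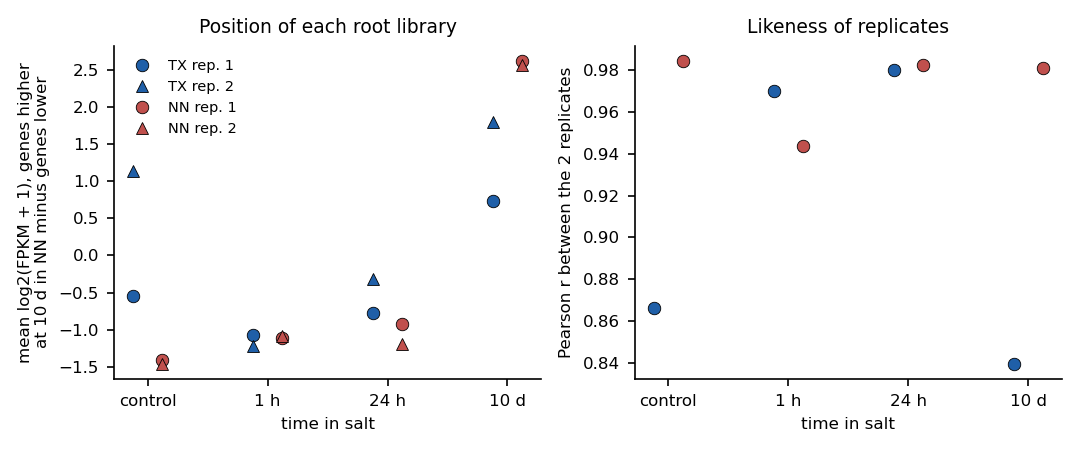
Left, the position of each of the 16 salt root libraries (y axis: mean log2(FPKM + 1) of the 2178 genes higher at 10 d in NN minus the mean of the 3013 genes lower) by time in salt, with TX in blue and NN in red, circles for replicate 1 and triangles for replicate 2. The NN positions at control and 10 d follow from how the genes were chosen. Right, the Pearson correlation between the 2 replicates of each group. TX control replicate 2 lies at 1.14, apart from the other early libraries, and the TX control and TX 10 d pairs have the lowest correlations, 0.866 and 0.839.

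In TX roots, 183 genes (0.82% of those tested) were higher after 1 h of salt than in the controls and 218 (0.977%) were lower. After 24 h, 129 (0.578%) were higher and 53 (0.238%) lower. In NN roots 5 were higher (0.0224%) and 7 lower (0.0314%) after 1 h, and 24 were higher (0.108%) and 11 lower (0.0493%) after 24 h. These counts moved when single libraries were left out. Each such fit leaves 1 library in a group, which by itself makes the contrast less precise. A fall in a count therefore cannot be laid to the library left out. Without TX control replicate 2, the TX genes numbered 28 higher and 34 lower after 1 h and 73 and 36 after 24 h. Without TX control replicate 1, so that replicate 2 stood alone for the TX controls, 3768 genes passed in TX roots after 1 h and 1639 after 24 h. The fits without one of the TX salt libraries left 21 and 65 genes after 1 h and 15 and 39 after 24 h, and those without one of the NN libraries concerned left 3 to 23 genes in NN after 1 h and 4 to 9 after 24 h. With both TX control replicate 2 and TX 10 d replicate 1 left out, a setting chosen after seeing the data, TX had 672 genes after 1 h and 696 after 24 h, and NN had 341 and 397. With library weights TX had 7 and 26 genes and NN 58 and 940, so the order of the varieties depended on the setting. In bulk roots, fewer cells of a type and less RNA per cell cannot be told apart. Under median-ratio scaling the share of higher genes among those past the threshold was 57.3% in TX after 1 h, against 45.6% with the values as deposited.

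**Figure D2:**
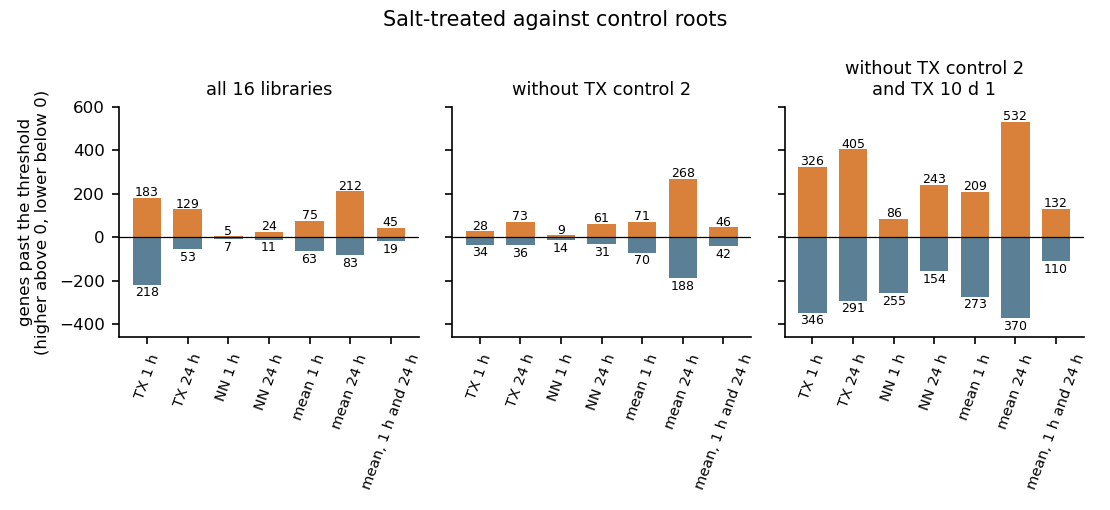
Genes past the threshold in salt-treated against control roots (y axis: number of genes, higher above 0 and lower below 0) for TX, NN and the mean of both varieties at 1 h and 24 h, and for genes past the threshold at both times in the mean. The left panel uses all 16 salt root libraries, the middle one leaves out TX control replicate 2, and the right one also leaves out TX 10 d replicate 1. TX after 1 h moves between 401 genes, 62 and 672.

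Many TX genes had changed in the opposite direction in NN roots after 10 d, the state towards which TX control replicate 2 lay. Of the 183 genes higher in TX after 1 h, 112 (61.2%) were lower in NN roots after 10 d against NN controls, and of the 218 lower genes, 139 (63.8%) were higher there, against 13.5% and 9.76% of all rows tested. In the fit without TX control replicate 2, 15 of 28 higher genes were lower in NN at 10 d, and 12 of 34 lower genes were higher. The part of this library in the TX counts was not tested beyond leaving it out.

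The 2 varieties share no library, so the genes of one were read in the other. Of the 129 genes higher in TX after 24 h, 113 had a change above 0 in NN after 24 h and 11 below 0, with a median of 0.96 on the log2 scale, against -0.06 over all genes tested. 8 of them also passed the threshold in NN. The 53 lower genes had a median change of -0.39 in NN, with 41 below 0. After 1 h the medians in NN were nearer to 0. The 183 higher genes had a median change of 0.31 in NN, with 112 above 0 and 69 below, and the 218 lower genes a median of -0.04, with 118 below 0 and 97 above. When TX control replicate 2 was left out, the median in NN was 0.75 for the 28 higher genes and -0.37 for the 34 lower genes of 1 h, and 1.14 for the 73 higher and -0.69 for the 36 lower genes of 24 h, where 67 of 73 and 34 of 36 had the direction of TX. In the opposite reading, 23 of the 24 genes higher in NN after 24 h had a change above 0 in TX, with a median of 1.59 against -0.04 over all genes, and 8 passed. The 11 genes lower in NN after 24 h had a median change of -0.08 in TX and none passed.

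**Figure D3:**
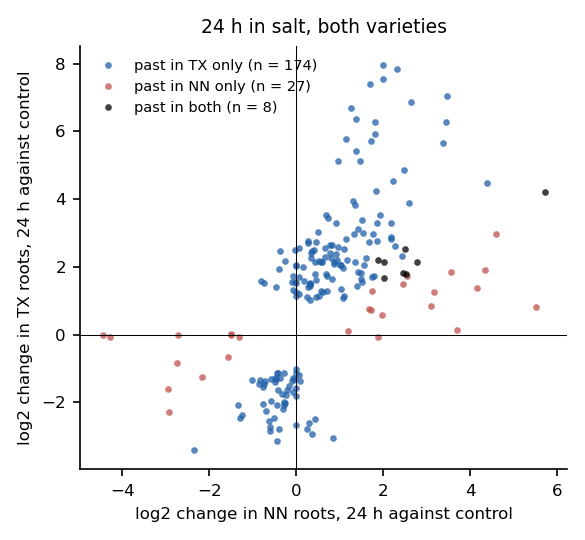
Change after 24 h of salt in NN roots (x axis, log2 scale) and in TX roots (y axis, log2 scale) for the 209 genes past the threshold in at least 1 variety: 174 in TX alone (blue), 27 in NN alone (red) and 8 in both (black). Most genes higher in TX lie right of 0, while several genes lower in NN lie near 0 in TX.

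Averaged over both varieties, 75 genes (0.336%) were higher and 63 (0.282%) lower after 1 h of salt. A simpler count without a model is that all 4 salt libraries lay above all 4 controls in 784 genes (3.51%) and below them in 743 (3.33%). Of the genes past the threshold, 63 of the 75 higher and 41 of the 63 lower ones were free of overlap in this way. The calls and this count use the same libraries, so it is no separate evidence. Leaving out TX control replicate 2 gave 71 higher and 70 lower genes, while 1552 passed without TX control replicate 1 and 340 without NN 1 h replicate 2. Each of the other 5 libraries, left out alone, lowered the count to between 18 (NN control replicate 1) and 61 (TX 1 h replicate 2). Under median-ratio scaling, 66.7% of the genes past the threshold were higher, against 54.3% as deposited.

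Genes were named by rule for a change against control only where salt and control libraries did not overlap within each variety concerned. Their lack of overlap is thus no separate evidence. HORVU2Hr1G074770 had the largest rise of such genes after 1 h in the mean of both varieties, by the smaller of its changes in TX and NN. It had 75.4 and 39.5 FPKM in salt-treated TX roots, against 0.678 and 1.58 FPKM in TX controls, and 32.2 and 17.2 FPKM in salt-treated NN roots, against 1.07 and 1.48 FPKM in NN controls. The salt libraries lay far above the controls in each variety. The change was 4.09 ± 0.37 on the log2 scale (SE) in the mean of both varieties, with an adjusted p of 0.00183, and it passed without each of the 8 libraries in turn. In single varieties it was 4.74 ± 0.52 in TX (adjusted p = 0.00661) and 3.44 ± 0.52 in NN, which did not pass (adjusted p = 0.0543). HORVU2Hr1G074770 was still higher after 24 h, at 16.5 and 51.9 FPKM in TX and 10.1 and 15.7 FPKM in NN, with a change of 3.23 ± 0.37 (adjusted p = 0.00279). After 10 d its 4 libraries had at most 0.984 FPKM. Leaves held far more of it than control roots, with 61.5 to 399 FPKM in the 16 leaf libraries of the salt experiment. This range overlapped the 75.4 FPKM seen in TX roots after 1 h. The genes seen in leaves alone stayed at a median of 0 FPKM in each of the 12 root libraries.

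HORVU3Hr1G016430 and HORVU3Hr1G066340 rose after 1 h and were lower again after 24 h. HORVU3Hr1G016430 had 12.5 and 10.5 FPKM in TX after 1 h, against 0.90 and 0.923 FPKM in TX controls, and 25.6 and 30.2 FPKM in NN after 1 h, against 3.25 and 4.06 FPKM in NN controls. After 24 h it had 0.762 and 1.03 FPKM in TX and 6.30 and 4.11 FPKM in NN. In both varieties the 1 h libraries lay above the controls, which the rule for naming required in NN. Both NN libraries of 24 h were still above the NN controls. The fall of HORVU3Hr1G016430 from 1 h to 24 h passed in TX (-2.72 ± 0.37, adjusted p = 0.0167) but not in NN (-2.24 ± 0.37, adjusted p = 0.133). Its change after 1 h was 2.70 ± 0.37 in TX (adjusted p = 0.0102) and 2.63 ± 0.37 in NN (adjusted p = 0.0348), and 24 h was lower than 1 h by a log2 change of -2.48 ± 0.26 in the mean of both (adjusted p = 0.00328). In the mean of both varieties the rise after 1 h was 2.67 ± 0.26 (adjusted p = 0.00212), a call that stayed without any one of the 16 libraries. In NN alone the call was lost without any one of its 4 libraries, with changes of 2.51 to 2.90 over all alternatives. HORVU3Hr1G066340 had 3.66 and 11.2 FPKM in TX after 1 h, against 0.318 and 0.263 FPKM in TX controls, and 15.5 and 5.76 FPKM in NN after 1 h, against 0.0835 and 0.258 FPKM in NN controls. It too was lower after 24 h than after 1 h, by -2.24 ± 0.33 in the mean of both varieties (adjusted p = 0.0178). In single varieties this fall did not pass (adjusted p = 0.13 in TX and 0.223 in NN). The rise of HORVU3Hr1G066340 in the mean of both varieties was 2.87 ± 0.33 (adjusted p = 0.00418), and this call stayed without any one of the 16 libraries. In NN alone it passed in 1 of 4 fits that left out a library, with changes of 2.53 to 5.22 over all alternatives.

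HORVU7Hr1G003170 rose after 1 h and remained up. It had 4.26 and 11.5 FPKM in TX after 1 h, against 0 and 0.315 FPKM in TX controls, and 19.3 and 6.30 FPKM in NN after 1 h, against 0.0667 and 0.275 FPKM in NN controls. The change in the mean of both varieties was 3.10 ± 0.56 after 1 h (adjusted p = 0.0365) and 3.29 ± 0.56 after 24 h (adjusted p = 0.0159). Neither variety passed alone after 1 h (adjusted p = 0.0974 in TX and 0.249 in NN) or after 24 h (adjusted p = 0.16 and 0.104). The 1 h call passed in only 2 of 8 fits that left out a library.

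The genes with the largest shared falls after 1 h had uneven controls. HORVU7Hr1G033620 had 6.91 and 4.37 FPKM in TX after 1 h, against 75.9 and 214 FPKM in TX controls, and 1.12 and 20.3 FPKM in NN after 1 h, against 63.0 and 27.7 FPKM in NN controls. HORVU2Hr1G104220 had 22.3 and 25.5 FPKM in TX after 1 h, against 96.9 and 1002 FPKM in TX controls, and 12.8 and 29.4 FPKM in NN after 1 h, against 158 and 71.7 FPKM in NN controls. Salt and control libraries did not overlap in either variety, as the rule for naming required. The replicates of some groups differed by more than an order of magnitude. In single varieties, HORVU7Hr1G033620 passed in TX (adjusted p = 0.0341) but not in NN (adjusted p = 0.461). HORVU2Hr1G104220 passed in neither (adjusted p = 0.0521 in TX and 0.512 in NN). Both genes passed in the mean of both varieties. The changes were -3.49 ± 0.60 for HORVU7Hr1G033620 (adjusted p = 0.0315) and -3.03 ± 0.59 for HORVU2Hr1G104220 (adjusted p = 0.0473), and each passed in 3 of 8 fits that left out a library.

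After 24 h, 212 genes (0.95%) were higher and 83 (0.372%) lower in the mean of both varieties, so that 71.9% of the changed genes were higher. All 4 salt libraries lay above all 4 controls in 858 genes (3.85%) and below them in 1157 (5.19%). This simpler count thus leaned the other way, and it was made only on the values as deposited. The median change over all genes was -0.057 as deposited and -0.009 under median-ratio scaling. Under that scaling 79.6% of the genes past the threshold were higher. Among the genes past the threshold, 176 of 212 and 59 of 83 were free of overlap, again in the libraries that gave the calls. Leaving out TX control replicate 2 gave 268 higher and 188 lower genes. With TX 10 d replicate 1 left out as well the numbers were 532 and 370. Leaving out TX control replicate 1 gave 783 genes, and leaving out any one of the other 6 libraries of the comparison left 93 to 122. Of the 295 genes, 70 passed in every fit that left out 1 of the 16 libraries, 58 of them higher and 12 lower. Of the higher genes, 54 of 212 (25.5%) averaged under 1 FPKM in the 4 controls, against 21.5% of all genes tested.

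An even rise after 24 h was seen in HORVU7Hr1G109850, a gene chosen after its values were seen because it passed in TX, in NN and in their mean without any one library. It had 6.08 and 6.53 FPKM in TX after 24 h, against 0.477 and 0.0845 FPKM in TX controls, and 5.01 and 5.20 FPKM in NN after 24 h, against 0.107 and 0.0554 FPKM in NN controls. The 4 salt libraries of 24 h were nearly level, while after 1 h the gene had at most 0.868 FPKM and after 10 d at most 0.179 FPKM. The change was 2.53 in TX (adjusted p = 0.000311), 2.50 in NN (adjusted p = 0.000533) and 2.51 ± 0.14 in the mean (adjusted p = 2.26e-05).

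HORVU5Hr1G072650 was higher after 24 h. It had 169 and 258 FPKM in TX after 24 h, against 2.43 and 25.2 FPKM in TX controls, and 144 and 40.6 FPKM in NN after 24 h, against 1.30 and 5.08 FPKM in NN controls. After 1 h its 4 libraries held 0.828 to 3.10 FPKM and overlapped the controls, with a change of -1.25 ± 0.64 that did not pass (adjusted p = 0.396). The change after 24 h was 4.42 ± 0.64 (adjusted p = 0.00702, passing without each of the 8 libraries in turn), and 24 h was higher than 1 h by 5.68 ± 0.64 (adjusted p = 0.0035).

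HORVU2Hr1G108400 was listed at 0 in both TX controls, so that no fold change can be given for TX. It had 39.2 and 23.8 FPKM in TX after 24 h, and 71.4 and 55.6 FPKM in NN after 24 h, against 1.33 and 2.28 FPKM in NN controls. The rise in the mean of both varieties had an adjusted p of 0.023 and passed in 2 of 8 fits that left out a library. Neither variety passed alone after 24 h (adjusted p = 0.102 in TX and 0.278 in NN). The 1 h libraries of this gene disagreed, with 62.1 and 0.829 FPKM in TX and 4.72 and 36.0 FPKM in NN.

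Among the genes lower after 24 h, HORVU4Hr1G062440 and HORVU1Hr1G072890 had the largest falls shared by both varieties. HORVU4Hr1G062440 had 6.46 and 6.31 FPKM in TX after 24 h, against 54.8 and 108 FPKM in TX controls, and 9.86 and 8.96 FPKM in NN after 24 h, against 58.2 and 45.8 FPKM in NN controls. HORVU1Hr1G072890 had 17.9 and 12.3 FPKM in TX after 24 h, against 55.0 and 107 FPKM in TX controls, and 17.5 and 13.7 FPKM in NN after 24 h, against 152 and 101 FPKM in NN controls. In both genes the 24 h libraries agreed closely. They lay below every control, which the rule for naming required within each variety. The changes were -2.87 ± 0.37 for HORVU4Hr1G062440 (adjusted p = 0.00473) and -2.61 ± 0.35 for HORVU1Hr1G072890 (adjusted p = 0.00528), and both passed without each of the 8 libraries in turn. These values are for the mean of both varieties. HORVU4Hr1G062440 passed in TX (-3.40 ± 0.53, adjusted p = 0.0162) but not in NN (-2.34 ± 0.53, adjusted p = 0.158). HORVU1Hr1G072890 passed in NN (-2.92 ± 0.49, adjusted p = 0.0489) but not in TX (-2.30 ± 0.49, adjusted p = 0.0591). The 4 libraries of 10 d were within or above the range of the controls in both genes, at 86.2 to 264 FPKM in HORVU4Hr1G062440 and 169 to 429 FPKM in HORVU1Hr1G072890.

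**Figure D4:**
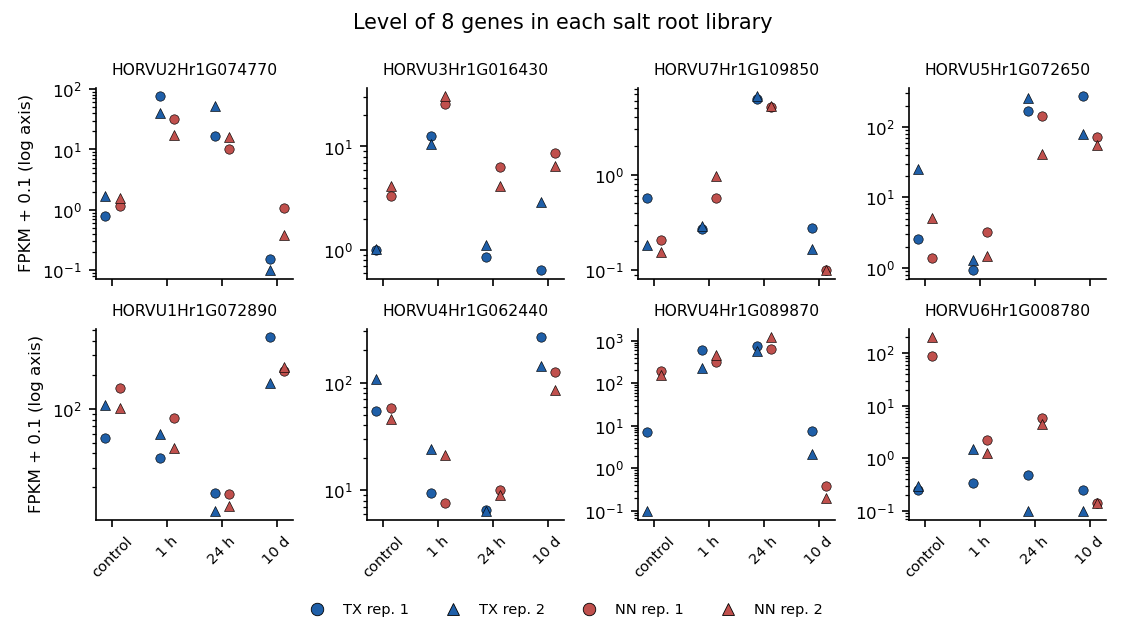
Level of 8 genes in the 16 salt root libraries (y axis: FPKM + 0.1, log axis) by time in salt, with TX in blue left of NN in red, circles for replicate 1 and triangles for replicate 2. HORVU3Hr1G016430 peaks at 1 h, HORVU7Hr1G109850 at 24 h, HORVU1Hr1G072890 is lowest at 24 h, and HORVU6Hr1G008780 is above 80 FPKM only in the 2 NN controls.

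A direct comparison of 24 h with 1 h, which uses no control library, found 41 genes (0.184%) higher and 11 (0.0493%) lower at 24 h in the mean of both varieties. HORVU2Hr1G033090 was among the higher ones. It had 95.2 and 134 FPKM in TX after 24 h, against 5.61 and 2.19 FPKM in TX after 1 h, and 113 and 75.4 FPKM in NN after 24 h, against 1.26 and 5.42 FPKM in NN after 1 h. The change of 24 h against 1 h was 4.62 ± 0.46 (adjusted p = 0.00328). The controls of HORVU2Hr1G033090 differed between the varieties, with 30.4 and 134 FPKM in TX and 1.07 and 1.02 FPKM in NN. It was higher after 24 h than in controls in NN (5.51 ± 0.65, adjusted p = 0.00927, a call lost without any one of its 4 libraries), while in TX it was lower after 1 h (-3.83 ± 0.65, adjusted p = 0.0191) and had a change of 0.81 ± 0.65 after 24 h (adjusted p = 0.715). The difference between the varieties at 24 h, -4.70 ± 0.91, did not pass (adjusted p = 0.282).

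HORVU6Hr1G084010 had the largest rise of NN roots after 24 h among genes whose salt and control libraries did not overlap. It had 29.2 and 31.0 FPKM in TX after 24 h, against 0.187 and 1.39 FPKM in TX controls, and 140 and 123 FPKM in NN after 24 h, against 0.885 and 2.36 FPKM in NN controls. The groups lay apart in both varieties. The change was 4.21 ± 0.84 in TX (adjusted p = 0.0466) and 5.72 ± 0.84 in NN (adjusted p = 0.0309). In the mean of both varieties it was 4.96 ± 0.595 (adjusted p = 0.00315), a call that stayed without any one of the 16 libraries. The NN call was lost without any one of its 4 libraries, with NN changes of 5.30 to 6.40 over all alternatives. The gene stayed high at 10 d, with 31.7 to 172 FPKM in 4 libraries.

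The number of genes changed in the same direction at both times was 108 in TX (74 higher, 34 lower), 6 in NN (none higher, 6 lower) and 64 in the mean of both varieties (45 higher, 19 lower). None was higher at one time and lower at the other. The 2 times share their controls, so this count is no separate evidence. The 108 genes of TX were 26.9% of its 1 h genes and 59.3% of its 24 h genes, and the 64 of the mean were 46.4% and 21.7%. The fit without TX control replicate 2 kept 42 genes in TX and 88 in the mean of both varieties, and that without TX control replicate 1 kept 1418 and 479. Leaving out one TX salt library kept 8 to 40 genes in TX. In the mean, leaving out NN 1 h replicate 2 kept 89 genes and leaving out any other library 9 to 40. In NN, 2 to 7 were kept.

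The kept genes with the largest rises were HORVU7Hr1G122350, HORVU4Hr1G089870 and HORVU4Hr1G087390, which had 0 to 0.0478 FPKM in TX control replicate 2, the library that stood apart, and 7.03 to 35.0 FPKM in replicate 1. HORVU4Hr1G089870 had 607 and 226 FPKM in TX after 1 h and 754 and 567 FPKM after 24 h, against 7.08 and 0 FPKM in TX controls. In NN it had 313 and 468 FPKM after 1 h and 634 and 1203 FPKM after 24 h, against 193 and 160 FPKM in NN controls. Every salt library lay above the controls of its variety, as the rule for naming required. The NN controls were far above those of TX. The change in TX was 7.03 ± 0.82 after 1 h (adjusted p = 0.00661) and 7.85 ± 0.82 after 24 h (adjusted p = 0.00192), and without TX control replicate 2 it was 5.52 after 1 h and 6.34 after 24 h, past the threshold at both times. The 1 h call in TX was lost without TX 1 h replicate 1. In the mean of both varieties HORVU4Hr1G089870 had changes of 4.07 ± 0.58 and 5.08 ± 0.58 (adjusted p = 0.0156 and 0.00279). In NN alone its changes, 1.12 ± 0.82 and 2.31 ± 0.82, did not pass (adjusted p = 0.932 and 0.492). The 1 h call in the mean did not hold in every fit that left out a library. The change there was 3.32 to 4.95 over all alternatives.

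HORVU4Hr1G087390 followed the same course, with 726 and 164 FPKM in TX after 1 h and 753 and 371 FPKM after 24 h, against 7.03 and 0 FPKM in TX controls, and with 340 and 403 FPKM in NN after 1 h and 616 and 1154 FPKM after 24 h, against 254 and 176 FPKM in NN controls. Its changes in the mean of both varieties were 3.87 ± 0.61 and 4.77 ± 0.61 (adjusted p = 0.0203 and 0.0047). In NN alone they were 0.80 ± 0.86 and 1.99 ± 0.86 and did not pass (adjusted p = 0.995 and 0.64). The 1 h call in the mean did not hold in every fit that left out a library. The change there was 3.12 to 4.74 over all alternatives. HORVU7Hr1G122350 was the most uneven of these genes, with 2035 and 378 FPKM in TX after 1 h and 2180 and 1081 FPKM after 24 h, against 35.0 and 0.0478 FPKM in TX controls. Its NN libraries held 188 and 194 FPKM after 1 h and 359 and 534 FPKM after 24 h, against 117 and 103 FPKM in NN controls. The changes of HORVU7Hr1G122350 in TX, 7.16 ± 1.34 and 7.97 ± 1.34 (adjusted p = 0.029 and 0.0219), did not pass without TX control replicate 2, when they were 4.61 and 5.42, nor without either salt replicate. In NN after 10 d these genes had at most 1.44 FPKM.

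Some genes named by rule for falls in TX roots had TX controls that differed widely. HORVU5Hr1G055950 had 0.388 and 0.175 FPKM in TX after 1 h, against 21.4 and 177 FPKM in TX controls (-5.63 ± 1.03, adjusted p = 0.0271), and HORVU1Hr1G005510 had 1.84 and 1.06 FPKM, against 49.7 and 206 FPKM (-5.41 ± 0.90, adjusted p = 0.0183). HORVU5Hr1G045650 had 1.91 and 4.90 FPKM after 1 h and 2.95 and 3.74 FPKM after 24 h, against 18.8 and 71.5 FPKM in TX controls (-3.19 ± 0.58 and -3.13 ± 0.58, adjusted p = 0.0265 and 0.0341). In each of these genes replicate 2 was the higher of the TX controls, and none passed without it or without either salt replicate. The changes without control replicate 2 were smaller but of the same sign, at -4.13 for HORVU5Hr1G055950, -4.39 for HORVU1Hr1G005510, and -2.26 after 1 h and -2.19 after 24 h for HORVU5Hr1G045650. In NN, salt and control libraries overlapped in 2 of these genes, with 0.0618 and 1.75 FPKM after 1 h against 0.487 and 3.01 FPKM in controls for HORVU5Hr1G055950, and 4.30 and 8.82 FPKM against 5.73 and 7.96 FPKM for HORVU5Hr1G045650. HORVU1Hr1G005510 had 0.589 and 6.59 FPKM in NN after 1 h, against 10.5 and 8.55 FPKM in NN controls, and its mean change in both varieties was -3.50 ± 0.64 (adjusted p = 0.0378).

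HORVU6Hr1G013610 fell at both times in the mean of both varieties. It had 0.384 and 0.936 FPKM in TX after 1 h and 0.934 and 1.68 FPKM after 24 h, against 4.68 and 14.8 FPKM in TX controls. In NN it had 0.382 and 0.624 FPKM after 1 h and 0.332 and 0.216 FPKM after 24 h, against 4.43 and 2.36 FPKM in NN controls. No salt library reached a control, which the rule for naming required within each variety. In single varieties, TX after 1 h passed (-2.53 ± 0.44, adjusted p = 0.021), while TX after 24 h (-2.06 ± 0.44, adjusted p = 0.0595), NN after 1 h (-1.51 ± 0.44, adjusted p = 0.395) and NN after 24 h (-1.75 ± 0.44, adjusted p = 0.229) did not. The changes in the mean were -2.02 ± 0.31 (adjusted p = 0.0189) and -1.90 ± 0.31 (adjusted p = 0.0131), and each passed in 4 of 8 fits that left out a library.

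The difference between the varieties was tested directly as the change in TX minus the change in NN. It passed for 48 genes after 1 h (0.215%) and for 5 after 24 h (0.0224%). It passed for 10 and 4 genes without TX control replicate 2, for 1488 and 635 without TX control replicate 1, and for 2 to 18 and 0 to 4 without any one of the other libraries of the comparison (686 and 916 genes at an unadjusted p under 0.05 where limma gave 0). The leading pair, HORVU6Hr1G008780 and HORVU6Hr1G008720, have close identifier numbers, and whether they share reads could not be checked here. HORVU6Hr1G008780 had 0.244 and 1.43 FPKM in TX after 1 h and 0.379 and 0 FPKM after 24 h, against 0.155 and 0.193 FPKM in TX controls. In NN it had 2.10 and 1.14 FPKM after 1 h and 5.80 and 4.49 FPKM after 24 h, against 87.1 and 201 FPKM in NN controls. The 2 NN controls thus stood far above all other salt roots. The change in NN was -5.70 ± 0.41 after 1 h (adjusted p = 0.000174) and -4.45 ± 0.41 after 24 h (adjusted p = 0.00163), and the difference between varieties was 6.26 ± 0.58 after 1 h (adjusted p = 0.00257). HORVU6Hr1G008720 had 0.137 and 0.515 FPKM in TX after 1 h, against 0.0728 and 0.226 FPKM in TX controls, and 0.802 and 0.535 FPKM in NN after 1 h, against 35.8 and 65.2 FPKM in NN controls. Its change in NN was -4.89 ± 0.28 after 1 h (adjusted p = 3.49e-05) and -4.29 ± 0.28 after 24 h (adjusted p = 0.000149). Both genes passed in NN at each time without any one library of NN. With a pseudocount of 0.1, HORVU6Hr1G008780 did not pass in NN at either time (adjusted p = 0.0852 and 0.101), and HORVU6Hr1G008720 did (adjusted p = 0.0392 and 0.0352).

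Waterlogged roots of the same varieties, with control libraries of their own, gave a separate reading of the genes of the salt response. In the mean of both varieties 10.2% of 22022 rows were higher and 8.41% lower after 1 h of waterlogging, and 8.64% were higher and 15.1% lower after 72 h. Of the 212 genes higher after 24 h of salt, 202 were tested there. After 1 h of waterlogging 100 of them were higher and 4 lower, with a median change of 1.04 against 0.08 over all rows, and after 72 h 108 were higher and 15 lower, with a median of 1.23 against -0.08. Of the 83 genes lower after 24 h of salt, 81 were tested, 35 of which were lower and none higher after 1 h of waterlogging (median -0.93), and 34 lower and 7 higher after 72 h (median -0.78). These shares lay above the background in the direction of salt at both times. Among the genes found without TX control replicate 2, 112 of 258 higher genes were higher after 1 h of waterlogging and 12 lower (median 0.86), and after 72 h 128 were higher and 21 lower (median 1.01). Of 178 lower genes found in that fit, 63 were lower and 19 higher after 1 h, so that the median there was -0.39 in place of -0.93, and 97 were lower and 7 higher after 72 h (median -1.15).

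The genes of 1 h and of 24 h of salt were read apart. Of the 75 genes higher after 1 h of salt, 71 were tested, with 33 higher and 8 lower after 1 h of waterlogging (median 0.83), but 23 higher and 13 lower after 72 h (median 0.18). Of the 63 lower genes, 61 were tested, with 31 lower and none higher after 1 h (median -1.10). After 72 h, 16 were lower (26.2%, against 15.1% of all rows) and 11 higher (18.0%, against 8.64%), with a median of -0.64. Both shares at 72 h thus lay above the background. The 41 genes that were higher at 24 h than at 1 h of salt had the higher count at the later time of waterlogging: of 39 tested, 8 were higher and 4 lower after 1 h of waterlogging (median 0.06), and 28 were higher and none lower after 72 h (median 3.94). Of the 45 genes higher at both times of salt, 28 were higher and 2 lower after 1 h of waterlogging and 23 higher and 3 lower after 72 h. Of the 19 genes lower at both times of salt, 18 were tested, with 5 lower and none higher after 1 h (median -0.53), and 3 lower and 2 higher after 72 h (median -0.59), the last 2 counts being near the background.

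**Figure D5:**
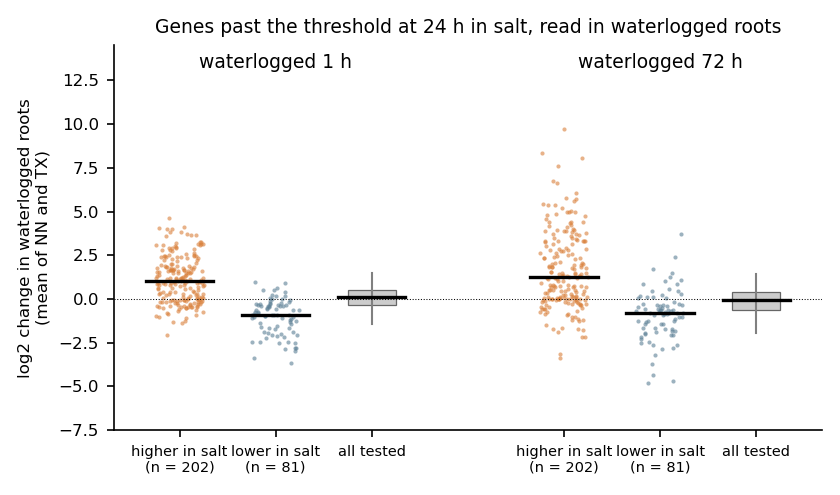
Change in waterlogged roots (y axis: log2 change against waterlogging controls, mean of NN and TX) after 1 h and 72 h for the genes higher (orange, n = 202) and lower (blue, n = 81) after 24 h of salt. Points are genes, thick lines are medians, and the grey boxes run between the quartiles of all rows tested, with thin lines out to the percentiles 5 and 95. The medians are 1.04 and -0.93 after 1 h and 1.23 and -0.78 after 72 h, against 0.08 and -0.08 over all rows.

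Several of the named genes changed the same way in waterlogging, and others did not. HORVU5Hr1G072650 had 2598 and 2492 FPKM in TX and 3100 and 2923 FPKM in NN after 72 h of waterlogging, against 38.7 and 0.461 FPKM in TX controls and 0.859 and 0.0693 FPKM in NN controls of that experiment. It had at most 2.58 FPKM after 1 h, so that it was high at the later time in both treatments. HORVU7Hr1G109850 rose by 3.10 ± 0.19 after 1 h (adjusted p = 2.62e-06) and by 5.0 ± 0.19 after 72 h (adjusted p = 2.07e-08). HORVU2Hr1G074770 rose by 4.63 ± 0.44 after 1 h (adjusted p = 2.05e-05), to 134 and 122 FPKM in TX, against 3.03 and 2.24 FPKM in TX controls. HORVU1Hr1G072890 fell to 1.12 and 1.41 FPKM in TX and 0.716 and 1.15 FPKM in NN after 72 h of waterlogging, against 65.5 and 34.5 FPKM in TX controls and 86.6 and 53.3 FPKM in NN controls. The change was -4.80 ± 0.27 (adjusted p = 1.92e-07). HORVU6Hr1G084010, higher after 24 h of salt, had a change of -1.015 ± 0.32 after 72 h of waterlogging (adjusted p = 0.0205). HORVU7Hr1G003170, also higher in salt, had changes of -0.59 after 1 h and -0.68 after 72 h of waterlogging that did not pass.

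HORVU3Hr1G016430, with its peak after 1 h of salt, was lower after 1 h of waterlogging. It had 0.251 and 0.17 FPKM in TX and 1.87 and 1.81 FPKM in NN after 1 h of waterlogging, against 1.59 and 1.04 FPKM in TX controls and 4.08 and 7.60 FPKM in NN controls, a change of -1.07 ± 0.20 (adjusted p = 0.0013). HORVU0Hr1G005210 moved in opposite directions in the TX roots of the 2 experiments. In TX it was lower in salt, with 1.49 and 2.28 FPKM after 1 h and 1.31 and 4.89 FPKM after 24 h, against 16.6 and 53.5 FPKM in TX controls (-3.44 ± 0.56 and -3.07 ± 0.56, adjusted p = 0.0168 and 0.0313, neither past the threshold without TX control replicate 2, when they were -2.62 and -2.25, or without either salt replicate). After 72 h of waterlogging it was higher, with 91.3 and 101 FPKM in TX, against 3.10 and 0.418 FPKM in TX controls (5.33 ± 0.49, adjusted p = 1.77e-05). In NN the changes had 1 direction, at 1.25 ± 0.56 after 1 h and 0.85 ± 0.56 after 24 h of salt, which did not pass (adjusted p = 0.689 and 0.898), and 4.06 ± 0.49 after 72 h of waterlogging (adjusted p = 0.000107).

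HvMADS14 (HORVU2Hr1G080490), a MADS-box transcription factor gene, had 1.19 to 3.29 FPKM in the 12 libraries. It had 2.56 and 3.0 FPKM in TX after 1 h and 3.29 and 2.38 FPKM after 24 h, against 2.68 and 1.19 FPKM in TX controls, and 2.16 and 2.20 FPKM in NN after 1 h and 1.98 and 2.37 FPKM after 24 h, against 2.61 and 2.08 FPKM in NN controls. Salt and control libraries overlapped in both varieties at both times. The change in the mean of both varieties was 0.17 ± 0.19 after 1 h (adjusted p = 0.711) and 0.17 ± 0.19 after 24 h (adjusted p = 0.772), values at which a change beyond 1 was not detected. Left without TX control replicate 2, the lowest of the 12 libraries, the changes were -0.02 and -0.01.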

How the data were processed

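The authors deposited FPKM per gene and library in one table per experiment. The submitters' processing notes name HISAT 2 and featureCounts 1.5.0, while no source used here gives the genome build, the annotation or the strand setting. The table has 43050 rows, of which 39734 are HORVU and 3121 ENSRNA identifiers. FPKM hold no totals, so depth is unknown. Relative depth, read off the steps between the low values, was 0.557 to 1.00 of that of NN control replicate 1 in the 12 libraries. Further sheets of the waterlogging workbook, with 82 value columns that repeat the first sheet or sum it, were not used.

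Libraries were grouped by the sample labels. limma 3.58.1 (R 4.3.3, trended empirical Bayes) was fitted to log2(FPKM + 1) of all 16 salt root libraries, 10 d roots included, as 8 group means. The values were not scaled again, and a row entered when 2 or more libraries reached 0.5 FPKM. It was tested on simulated data. Waterlogging roots were fitted apart. The p-values were adjusted by the Benjamini-Hochberg method. The members and lists were chosen with earlier results of these data known. Genes were named by rule: HvMADS14 and, per comparison, at most 2 each way with the largest change among those past the threshold whose salt and control libraries did not overlap (for the mean of both varieties or both times, the largest smaller change). For TX minus NN the 2 largest each way were named. A list of salt genes could not be run without gene names.

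Alternatives were a pseudocount of 0.1, no filter, median-ratio scaling, the replicate number as a block, library weights, the 12 early libraries alone and leaving out each library of a contrast. Leaving out 2 libraries together was chosen after seeing the data.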

Additional observations from a re-analysis of the deposited data

Results flagged for a closer look

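The response to salt differed between the varieties, by the direct test of TX minus NN, in 48 genes after 1 h and in 5 after 24 h. Without TX control replicate 2 the numbers were 10 and 4. HORVU6Hr1G008780 differed by 6.26 after 1 h and 4.45 after 24 h, and HORVU6Hr1G008720 by 5.09 and 4.21, on the log2(FPKM + 1) scale. The difference after 1 h passed without each of the 8 libraries in turn in both genes, but not with a pseudocount of 0.1 (adjusted p = 0.0562 in each gene) nor, for HORVU6Hr1G008780, with library weights (adjusted p = 0.0581). After 24 h it passed in 2 of 8 fits that left out a library for HORVU6Hr1G008780 and 6 of 8 for HORVU6Hr1G008720. The high values were those of the 2 NN salt controls, while in waterlogging NN controls HORVU6Hr1G008780 had 2.49 and 1.35 FPKM and HORVU6Hr1G008720 had 2.01 and 0.881 FPKM.

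HORVU0Hr1G005210 differed by -4.69 and HORVU4Hr1G081990 by -4.61 after 1 h. HORVU4Hr1G081990 had 2.52 and 5.86 FPKM in TX after 1 h, against 29.4 and 92.5 FPKM in TX controls, and 10.9 and 6.39 FPKM in NN after 1 h, against 2.91 and 3.47 FPKM in NN controls. Each of these 2 differences passed in 1 of 8 fits that left out a library. The difference of -1.58 for HORVU6Hr1G031280 after 24 h gives no fold, since the gene had 1.58 and 2.46 FPKM in TX controls and was listed at 0 in all other salt root libraries.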

How the results depend on the processing

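The counts moved widely when single libraries were left out. Each such fit left 1 library in a group, so a lower count cannot be told from a loss of precision. Leaving out 1 library of the contrast gave 21 to 3768 genes in TX at 1 h (401 reported), 15 to 1639 in TX at 24 h (182), 3 to 23 in NN at 1 h (12), 4 to 9 in NN at 24 h (35), 18 to 1552 (138) and 93 to 783 (295) in the mean at 1 h and 24 h, 2 to 1488 (48) and 0 to 635 (5) for TX minus NN, and 8 to 1418 (108), 2 to 7 (6) and 9 to 479 (64) for genes kept in TX, NN and the mean. The highest TX and mean counts came without TX control replicate 1, and the highest NN counts at 1 h without NN 1 h replicate 2. Calls that stayed without any one of the 16 libraries numbered 8 and 11 in TX, 2 and 3 in NN, 14 and 70 in the mean and 2 and 0 for TX minus NN (limma, with 1135 genes at an unadjusted p under 0.05 for TX minus NN at 24 h).

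With TX control replicate 2 and TX 10 d replicate 1 both left out, the counts were 672 and 696 in TX, 341 and 397 in NN, 482 and 902 in the mean, 383 and 3 for TX minus NN, and 330, 101 and 242 kept in TX, NN and the mean. These included 267 of the 401 and 149 of the 182 TX genes and 270 of the 295 genes of the mean at 24 h. The 12 early libraries alone gave 844 and 385 in TX, 240 kept in TX, and 128 and 0 for TX minus NN. Library weights gave 7 and 26 in TX with 5 kept, 58 and 940 in NN with 30 kept, and 6 and 0 for TX minus NN. A pseudocount of 0.1 gave 108 in TX at 24 h, 1 and 8 in NN, 1 and 0 for TX minus NN, and 66, 1 and 42 kept in TX, NN and the mean. The counts of 0 for TX minus NN at 24 h stood beside 1605, 1523 and 1059 genes at an unadjusted p under 0.05. No filter gave 23 in NN at 24 h, 206 in TX at 1 h, 82 in the mean at 1 h and 37 kept in the mean. Median-ratio scaling gave 7 in NN at 1 h and 24 for TX minus NN at 1 h (83.3% of them higher in TX, against 66.7%). The cause of these shifts was not tested.

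The replicate numbers did not pair the libraries: deviations of same-numbered libraries correlated above 0.1 in 5 of 15 pairs of early groups (-0.32 to 0.26). With the replicate number as a block, NN at 24 h had 20 genes and TX minus NN at 24 h 2, and the other 9 counts stayed within 1.5 times, such as 526 in TX at 1 h and 317 in the mean at 24 h. Of 46 values of named genes, 16 kept both their sign and their side of the threshold without any one library of their contrast. The values of HvMADS14 passed in no fit and are not among the 16, because their sign turned. The change of HvMADS14 (HORVU2Hr1G080490) in the mean was -0.017 at 1 h and -0.012 at 24 h without TX control replicate 2, with or without TX 10 d replicate 1, and over all omissions it was -0.017 to 0.356 and -0.012 to 0.361.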

Other observations

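Several genes of the early root response were also seen in leaves of the salt experiment, but late. HORVU6Hr1G084010 had 213 and 262 FPKM in TX leaves and 294 and 421 FPKM in NN leaves after 10 d, against 0.183 and 0.18 FPKM in TX leaf controls and 0.156 and 0.124 FPKM in NN leaf controls, and at most 4.44 FPKM in leaves after 1 h or 24 h. HORVU7Hr1G003170 had 45.7 and 26.9 FPKM in TX leaves and 35.1 and 28.9 FPKM in NN leaves after 10 d, against at most 0.0661 FPKM in leaf controls. HORVU5Hr1G072650, HORVU4Hr1G089870 and HORVU7Hr1G109850 stayed under 1 FPKM in every salt leaf library.

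HORVU5Hr1G055950 and HORVU7Hr1G033620, which were lower in TX roots after 1 h of salt, differed greatly between replicates of leaves. In TX salt leaf controls HORVU5Hr1G055950 had 0.82 and 522 FPKM and HORVU7Hr1G033620 had 1.04 and 566 FPKM, the second value in replicate 2 in both genes.

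By the chromosome digit in the identifier, 20.3% of the 212 genes higher after 24 h of salt in the mean of both varieties were on chromosome 4, against 11.9% of all HORVU rows tested. This was not tested. Over all chromosomes, 51 of the 202 placed genes of this list lay in 31 pairs with identifier numbers at most 100 apart. Each of these neighbours was counted by itself.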
